A study of Rattus norvegicus with 6 samples.

Results

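Of the 9054 distinct rows in the deposited table of long non-coding RNAs (lncRNAs), 485 carry an identifier that begins with uc, and these rows are described here. Each identifier is a number for an ultraconserved element, a stretch of DNA that is identical in human, rat and mouse, followed by a plus or a minus sign. The sign names the orientation of the transcript that the probe was designed for. The members were chosen by this name alone, after exact repeats of a row had been dropped: the table lists 655 such rows and repeats 110 of the identifiers, up to 9 times. Neither the sequences nor the positions of these elements were in the files used here.

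Ultraconserved elements lie both between genes and inside them, many in introns or around exons of genes that encode RNA-binding proteins, and many act as enhancers. RNA that is read from them is called a transcribed ultraconserved region, and such transcripts are regulated by tissue and by disease state. Several RNA-binding proteins of the splicing machinery carry an ultraconserved exon whose inclusion sends their mRNA to decay, so that the element takes part in setting the amount of the protein. A few of these transcripts have been studied in heart cells in relation to hypertrophic growth and to differentiation.

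The study compared neonatal rat ventricular cardiomyocytes that were left untreated with cells exposed to 10 µM isoproterenol for 24 h, 3 arrays per group. Isoproterenol is an agonist of beta-adrenergic receptors and is widely used to bring about hypertrophy of these cells. All cells came from Sprague-Dawley rats aged 1 to 3 days, were freed of most fibroblasts by letting these attach first, and were held in serum-free medium before treatment; no genotype or transgene was given. The labels also mention several passages, and the series text speaks of transfection, for what are described as primary cells. Although the replicates are called biological in the series text, nothing says which litter or culture each came from, so a p-value here measures only the spread between these samples, which may be technical.

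Values are normalized signals of the Cy3 dye on a log2 scale, as deposited, so that a difference of 1 is a doubling, and they are not comparable between different probes. The labels name no slide, and 2 slides were inferred from the scan times in the file headers. By this the 3 control arrays and isoproterenol replicate 1 lay on slide 1, and isoproterenol replicates 2 and 3 on slide 2. Slide and treatment therefore partly coincide. Median signals of negative-control probes were 27 to 30 on slide 1 and 84 to 87 on slide 2, while the 75th percentile of the signal was 514 to 562 on slide 1 and 198 to 240 on slide 2. A row is called detected on an array where at least 2 of its 3 spots were well above background.

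On slide 1 between 84.7% and 95.3% of the 485 uc rows were detected, on slide 2 24.3% and 35.1%. Of all lncRNA rows between 94.0% and 99.1% were detected on slide 1, and 41.0% and 51.3% on slide 2. The share of uc rows was the lower one on each of the 6 arrays. Their medians lay between 4.71 and 4.90 on every array. The lowest detected signal among all probes of an array was between 2.71 and 3.297 on slide 1, below those medians, and 6.08 and 5.38 on isoproterenol replicates 2 and 3, above them.

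**Figure D1:**
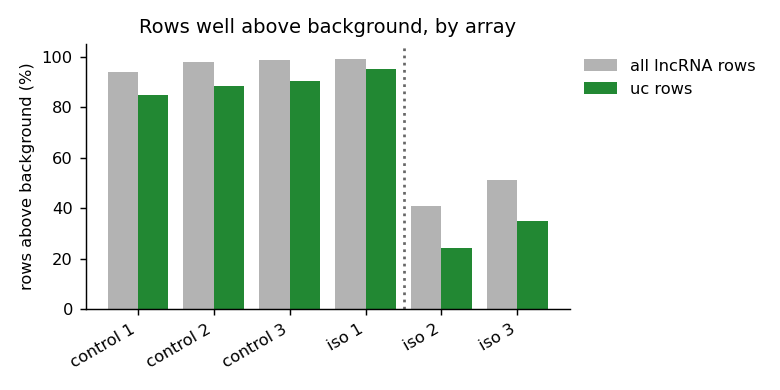
Share of rows well above background on each array, in percent, for all 9054 lncRNA rows (grey) and the 485 uc rows (green); the dotted line divides slide 1 (left) from slide 2 (right). On slide 1 the uc share is 84.7% to 95.3%, and on the arrays of slide 2 it is 24.3% and 35.1%.

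In all, 118 uc rows were detected on every array, 55 in the plus and 63 in the minus orientation, and they belong to 101 elements. Another 221 were detected on exactly the 4 arrays of slide 1. On neither array of slide 2 were 315 rows detected, and 8 were detected on no array.

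With all 9054 lncRNA rows tested together, 2 of the 485 uc rows passed an adjusted p of 0.05, which is 0.412%, beside 1.36% of the whole table. One was higher with isoproterenol, uc.452-, and one was lower, uc.9+. In the same directions 0.574% of the whole table was higher and 0.784% lower. Neither was called when slide was entered as a block. In RNA of whole cultures, fewer cells of a type and less RNA per cell cannot be told apart.

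uc.452- read 4.70, 4.86 and 4.53 on the control arrays and 6.54, 6.56 and 6.76 on the isoproterenol arrays. The groups did not overlap, and the isoproterenol array that shared a slide with the controls stood as high as the others. The means were 4.70 ± 0.165 and 6.62 ± 0.121 (SD, n = 3 each), a rise of 1.92 ± 0.20 (SE) on the log2 scale or 3.78-fold, with an adjusted p of 0.0181 from limma. This row was detected on all 6 arrays. On isoproterenol replicate 2 only 2 of its 3 spots were above background, and its 6.56 lay near the lowest detected signal of 6.08. Before normalization its 3 spots gave 28.0, 36.0 and 36.8 scanner units on control replicate 1 and 131.8, 150.9 and 144.2 on isoproterenol replicate 1. Control replicates 2 and 3 gave 31.5, 53.5 and 33.0, and 23.4, 34.1 and 31.0. On slide 2 isoproterenol replicate 2 gave 32.7, 48.5 and 46.6, within the range of the control spots, and replicate 3 gave 57.1, 53.0 and 74.7. Within slide 1 the difference was 1.84 (adjusted p = 0.0954 from limma, where the single isoproterenol array is assumed to vary like the controls), and with slide as a block the adjusted p was 0.0828. Leaving out any one array other than isoproterenol replicate 1 also raised the adjusted p above the threshold, to between 0.0734 and 0.186, with a difference of 1.84 to 2.00. With normexp on median signals (offset 50) followed by quantile normalization, the difference was 0.88, with an adjusted p of 0.00785.

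The probe for the other orientation of the same element, uc.452+, read 5.17, 5.38 and 5.65 on the controls and 5.73, 5.04 and 5.63 with isoproterenol. These values overlapped throughout, and the row was not detected on either array of slide 2. The difference was 0.06 ± 0.27 (adjusted p = 0.885), and its sign turned under some of the other scalings.

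uc.9+ read 4.40, 5.05 and 4.90 on the control arrays and 2.68, 2.55 and 3.31 on the isoproterenol arrays. Every control value was above every isoproterenol value. All 3 spots were above background on each control array, and the row was not detected on any isoproterenol array. Every uc row of the table had a spot above background on at least 3 arrays. For uc.9+ these were the control arrays alone, so its place in the table may rest on the group where it was high. The fitted difference was −1.94 ± 0.30 (adjusted p = 0.0456), and within slide 1 it was −2.11 (adjusted p = 0.111). With slide as a block the adjusted p was 0.133. The control mean was 1.04-fold above the mean of the lowest detected signals of the isoproterenol arrays, a figure set mainly by slide 2. On slide 1 alone the figure was 4.20-fold, from a control mean of 4.78 against a lowest detected signal of 2.71. Neither figure is a lower bound on the fall, because some undetected probes read above the lowest detected signal. On isoproterenol replicate 1, for example, an undetected uc probe that is not a row of the table read 3.81. The 3 spots of uc.9+ gave 27.7, 27.0 and 24.7 scanner units on control replicate 1 and 7.1, 8.1 and 8.3 on isoproterenol replicate 1. Without any one array other than isoproterenol replicate 1 the adjusted p was 0.111 to 0.260, and with the values centred on each array's median it was 0.0530. The call was also lost with normexp on median signals followed by quantile normalization, where the difference was −0.42 (adjusted p = 0.0777), with scaling by the 75th percentile, at −1.46 (0.113), and with that percentile over the detected probes, at −1.68 (0.0789). The opposite orientation, uc.9-, is not a row of the table, and its probe was not detected on any array.

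**Figure D2:**
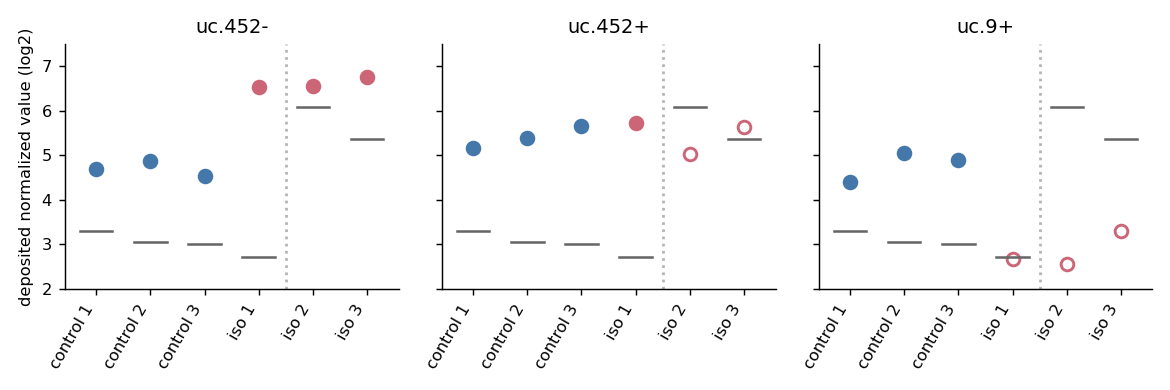
Deposited log2 values of uc.452-, uc.452+ and uc.9+ on the 3 control (blue) and 3 isoproterenol (iso, red) arrays; filled points were detected, open points were not, grey bars mark the lowest detected signal of each array, and the dotted line divides slide 1 from slide 2. uc.452- lies between 4.53 and 4.86 on controls and between 6.54 and 6.76 with isoproterenol, and uc.9+ is open on all 3 isoproterenol arrays.

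Leaving out isoproterenol replicate 1, after which treatment and slide coincide fully, moved the calls from 1 higher and 1 lower to 122 higher and 120 lower uc rows (4211 of all lncRNA rows). Leaving out any other single array, limma called 0 uc rows in either direction, with 35 to 53 rows at an unadjusted p under 0.05. At an unadjusted p of 0.05, 99 uc rows or 20.4% differed in the fit of all 6 arrays, 53 higher and 46 lower, beside 22.8% of the whole table. With slide as a block limma called 0 uc rows and 0.0% of the table. At an unadjusted p under 0.05 the block left 43 uc rows, with 13.4% of the table.

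Across the 485 rows the median difference was −0.02, with an interquartile range of −0.48 to 0.47, beside a median of −0.21 over the whole table. Within slide 1 the medians were 0.04 and 0.08. In 72 uc rows (14.8%) every isoproterenol value was above every control value, and in 56 (11.5%) every one was below, beside 15.2% and 16.4% of all lncRNA rows. The median SD of a row was 0.181 among control arrays and 0.515 among isoproterenol arrays. Among the 118 rows detected everywhere these were 0.148 and 0.330.

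Among the rows not detected on all arrays, the lowest and the highest differences were as follows. uc.354+ read 7.42, 7.19 and 7.28 on the controls and 6.73, 2.82 and 4.46 with isoproterenol. All isoproterenol values were lower, and the 2 on slide 2 were not detected. The difference of −2.62 ± 0.93 did not pass (adjusted p = 0.189) and was −0.56 within slide 1. At the other end uc.480- read 2.45, 2.85 and 2.98 on the controls and 2.47, 6.15 and 5.97 with isoproterenol, and was detected on 1 array in all. Its difference of 2.10 ± 0.99 (adjusted p = 0.252) was −0.29 within slide 1, the opposite sign. uc.161+ differed by −1.96, or −0.35 within slide 1, and uc.406- by 1.80, or −0.20 within slide 1. These 4 rows were picked after their values had been seen.

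**Figure D3:**
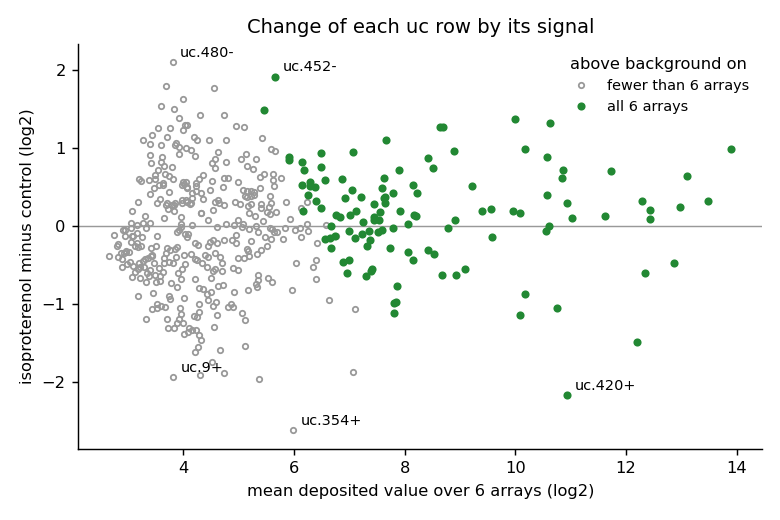
Difference between isoproterenol and control (log2) of each of the 485 uc rows against its mean deposited value over the 6 arrays (log2); green points are the 118 rows detected on all arrays and grey circles the others. The lowest and the highest difference, −2.62 for uc.354+ and 2.10 for uc.480-, belong to rows detected on fewer arrays, and uc.420+, detected on all, lies at −2.17.

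When the test was limited to the 3666 lncRNA rows detected on all 6 arrays, 21 of the 118 uc rows passed, which is 17.8% beside 17.2% of all rows in that set. These were uc.452- and 9 further rises, and 11 falls. Of the 10 rises 9 were in the minus orientation and 1 in the plus, and of the 11 falls 6 were plus and 5 minus. In that set 11.1% of all rows rose and 6.16% fell. Adjusted p-values ran from 0.00238 for uc.452- to 0.0486, and differences from 0.60 to 2.17 in size. With scaling by the 75th percentile of probes detected on all arrays the split was 7 higher and 14 lower. In all 21 the groups did not overlap, which also fixes the sign within slide 1, so only the size there is informative. Among the 118 rows, 28 (23.7%) lay wholly above the controls and 18 (15.3%) wholly below, beside 25.9% and 17.9% of all rows in the set. The rows named from these 21, apart from uc.452- and uc.141-, were chosen after their values had been seen.

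Among the rises uc.418- read 9.51, 9.26 and 9.15 on the controls and 10.27, 10.94 and 10.85 with isoproterenol. uc.49- read 10.08, 9.87 and 9.94 against 10.82, 11.61 and 11.42. Both had every isoproterenol value above the controls, with the slide 1 array the lowest of the 3 treated ones. The differences were 1.38 ± 0.25 (adjusted p = 0.0131 in this set) for uc.418- and 1.32 ± 0.26 (adjusted p = 0.0160) for uc.49-. Within slide 1 they were 0.96 and 0.86.

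uc.408- read 10.11, 10.03 and 10.24 on the controls and 11.24, 10.96 and 10.84 with isoproterenol. Here the slide 1 array was the highest of the treated arrays, and the groups were apart. Its difference was 0.89 ± 0.20 (adjusted p = 0.0171) and 1.11 within slide 1. uc.246+, the one rise in the plus orientation, read 7.24, 7.14 and 6.96 against 7.91, 8.41 and 8.34, a difference of 1.11 ± 0.22 (adjusted p = 0.0144) and of 0.80 within slide 1. The minus row of the same element, uc.246-, differed by 0.20 ± 0.19.

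uc.141- had the highest mean signal of the uc rows. It read 13.52, 13.34 and 13.36 on the controls and 14.14, 14.59 and 14.46 with isoproterenol. No treated value reached down to the controls, and the difference was 0.99 ± 0.21, or 0.74 within slide 1. Over the whole table it did not pass (adjusted p = 0.0810), and over the rows detected everywhere it did (adjusted p = 0.0151). The remaining rises were uc.186- at 1.27 (0.46 within slide 1), uc.193- at 0.96 (0.62), uc.366- at 0.87 (0.49) and uc.63- at 0.72 (0.45). In each of these the within-slide difference was the smaller one.

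The fall of largest size was that of uc.420+, which read 12.05, 12.17 and 11.84 on the controls and 11.04, 9.11 and 9.41 with isoproterenol. All treated arrays were lower, and those of slide 2 much lower than that of slide 1. The difference was −2.17 ± 0.52 (adjusted p = 0.0316 in this set, 0.102 over the whole table) and −0.98 within slide 1. uc.173+ read 12.71, 13.12 and 13.01 against 11.94, 10.99 and 11.42, again with no overlap. It differed by −1.49 ± 0.30 (adjusted p = 0.0166) and by −0.999 within slide 1.

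uc.185- read 8.14, 8.60 and 8.23 on the controls and 7.33, 7.45 and 7.26 with isoproterenol. The treated arrays lay close together below the controls, and the difference was −0.98 ± 0.21 (adjusted p = 0.0163), or −0.99 within slide 1. uc.174+ read 9.07, 9.43 and 9.23 against 8.55, 8.65 and 8.67, also without overlap, a difference of −0.62 ± 0.19 (adjusted p = 0.0357) and of −0.70 within slide 1. The other falls were uc.247+ (−1.14), uc.480+ (−1.11), uc.456- (−1.05), uc.335+ (−0.87), uc.483- (−0.77), uc.474- (−0.64) and uc.420- (−0.60). Within slide 1 they were −0.73, −0.53, −0.70, −0.42, −0.49, −0.51 and −0.42, in the same order, and so each was smaller there.

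**Figure D4:**
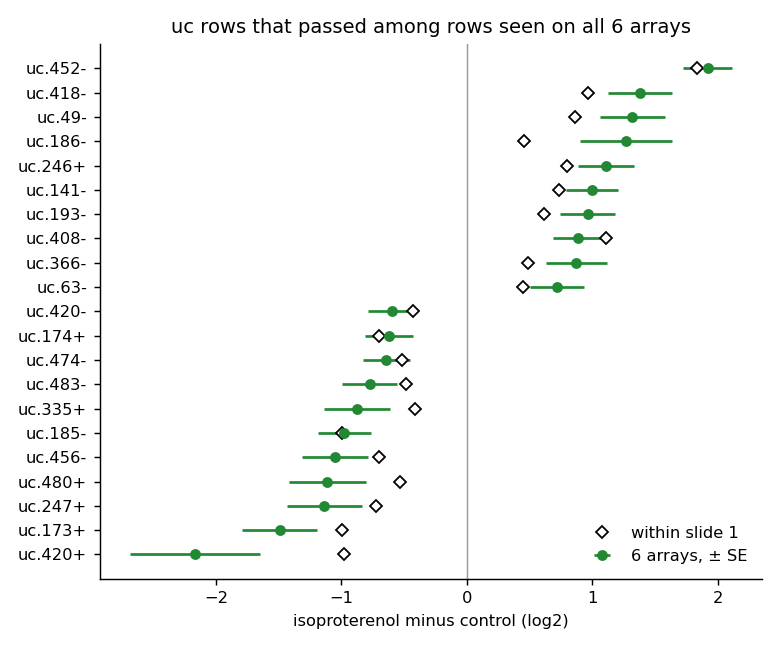
The 21 uc rows that passed when only rows detected on all 6 arrays were tested: difference between isoproterenol and control (log2) over all arrays (green, bars are ± 1 SE of the fit) and within slide 1, which holds 1 isoproterenol array (open diamonds). Within slide 1 the differences run from −0.999 for uc.173+ to 1.84 for uc.452-.

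With slide as a block in this set, 15 of the 118 uc rows passed, 12.7% beside 12.2% of all rows, and 10 of them were among the 21. Those 10 were uc.452-, uc.408-, uc.49-, uc.418-, uc.246+, uc.141- and uc.193- among the rises, and uc.420+, uc.185- and uc.173+ among the falls. uc.452- had an adjusted p of 0.00649 and uc.408- one of 0.0116, and the other 8 lay between 0.0224 and 0.0436. The remaining 5 were uc.475+, uc.414+, uc.45-, uc.378- and uc.101-, whose isoproterenol arrays differed from one slide to the other. uc.378-, for instance, read 9.50, 9.24 and 9.34 on the controls, 10.18 on the isoproterenol array of slide 1, and 8.24 and 8.02 on those of slide 2. It lay above the controls on slide 1 and below them on slide 2, and its difference was −0.55 over all arrays and 0.82 within slide 1. Within slide 1 alone, with slide 2 left out, 5 rows of the set passed as higher and 2 as lower, beside 7.99% of all rows, and 5 of them were among the 21. Leaving out control replicate 1, 2 or 3 gave 5, 1 and 1 higher and 2, 0 and 0 lower rows. Leaving out isoproterenol replicate 1, 2 or 3 gave 52, 4 and 1 higher and 21, 2 and 0 lower rows. Where a single row passed it was uc.452-, and 26 to 31 of the 118 rows then had an unadjusted p under 0.05 in limma.

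Both orientations of 17 elements were detected on all 6 arrays. For uc.420 the plus row fell by 2.17 on the log2 scale and the minus row, which read 12.76, 12.62 and 12.52 on the controls and 12.21, 11.96 and 11.94 with isoproterenol, by 0.60. In both rows the treated values lay below the controls. For uc.173 the plus row differed by −1.49 and the minus row by −0.15 ± 0.29, the latter with overlapping values. uc.471+ and uc.471- both stood higher with isoproterenol, at 0.71 ± 0.28 and 0.85 ± 0.30, and so did uc.75+ and uc.75-, at 0.82 ± 0.37 and 0.72 ± 0.27, but none of these 4 rows passed. Within slide 1 they were 0.16, 0.25, 0.05 and 0.21. Opposite signs were seen for 3 elements. The plus and minus rows differed by −0.60 ± 0.22 and 0.53 ± 0.22 for uc.293, by −0.28 ± 0.20 and 0.99 ± 0.31 for uc.419, and by −0.98 ± 0.34 and 0.32 ± 0.25 for uc.188. None of these 6 rows passed either. Within slide 1 the signs were opposite for 6 elements, namely uc.293, uc.419, uc.268, uc.414, uc.455 and uc.46, while both rows of uc.188 were negative, at −0.27 and −0.11. A difference between the orientations of one element was not tested.

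**Figure D5:**
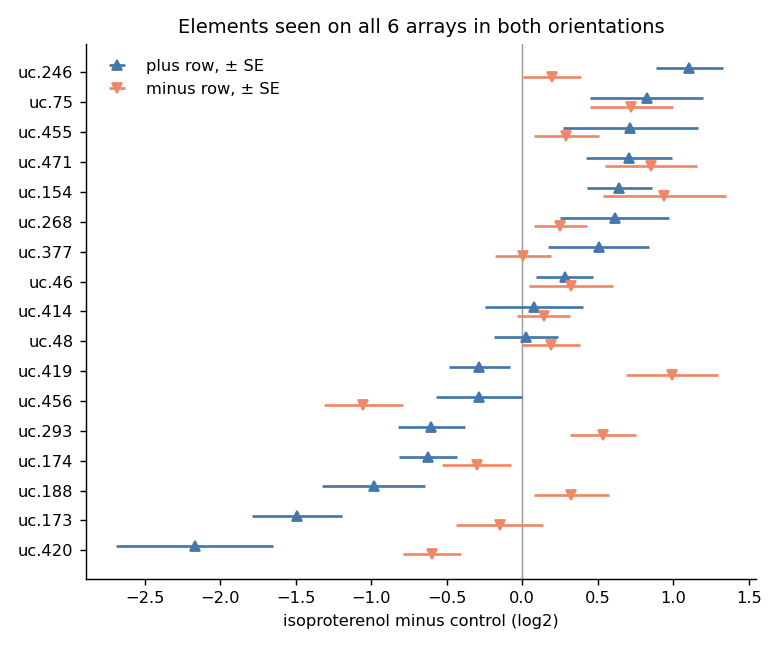
Difference between isoproterenol and control (log2, bars are ± 1 SE of the fit, 3 arrays per group) for the plus (blue) and minus (orange) rows of the 17 elements detected on all 6 arrays in both orientations. uc.420 lies below 0 in both, at −2.17 and −0.60, and uc.293 lies on opposite sides, at −0.60 and 0.53.

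Another pair of elements is described whatever their values because they have been studied in heart cells (the processing summary gives their numbers), and both gave faint signals. The lower-numbered element had rows in both orientations, detected on no array of slide 2. Its minus row read 4.24, 4.21 and 3.98 on the controls and 3.89, 3.71 and 4.40 with isoproterenol, with overlapping groups and a difference of −0.15 ± 0.25 (adjusted p = 0.699). Its plus row differed by −0.26 ± 0.33 (adjusted p = 0.602). The higher-numbered element had only its plus orientation in the table, which read 3.60, 3.49 and 3.46 on the controls and 3.46, 2.39 and 3.44 with isoproterenol and was not detected on slide 2 either. That difference was −0.42 ± 0.33 (adjusted p = 0.419) and turned positive under scaling by the 75th percentile. On slide 2, where these rows were not detected, their signal has no measured level.

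The 5 uc rows of highest mean signal were uc.141-, uc.46-, uc.465-, uc.154+ and uc.268-. uc.154+ read 12.66, 12.91 and 12.76 on the controls and 13.14, 13.62 and 13.49 with isoproterenol. The groups were apart, but the difference of 0.64 ± 0.21 did not pass over the whole table (adjusted p = 0.175) or in the detected set (0.0502). uc.268- differed by 0.25 ± 0.18, uc.465- by −0.48 ± 0.21 and uc.46- by 0.32 ± 0.28, with adjusted p-values of 0.369, 0.236 and 0.450. For uc.46- the treated array of slide 1 lay below the controls, at 13.11, and those of slide 2 above them, at 13.94 and 13.88.

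The uc rows whose pattern over the 6 arrays was most like that of uc.9+, by Pearson's r, were uc.174+ (0.968), uc.185- (0.932) and uc.475- (0.929). uc.475- read 5.65, 5.80 and 5.59 on the controls and 4.60, 5.01 and 5.18 with isoproterenol, and was detected on the 4 arrays of slide 1. The likeness is a description only: uc.9+ was not above background on the 3 isoproterenol arrays, and the 6 points share their slides and normalization.

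The arrays carry 962 uc probes, both orientations of 481 elements with numbers up to 483, of which 477 are not in the deposited table. Both orientations of 146 elements are rows of the table, the plus orientation alone of 87 and the minus alone of 106, while 142 elements have no row. Outside the table, no array detected 412 of the 477 probes, and 45 were detected on isoproterenol replicate 1 alone. None of the 477 was detected on 3 or more arrays. With all 38321 probes tested on the rebuilt deposited scale, 11 uc probes passed, 6 higher and 5 lower, beside 5.34% of all probes. The 1 of these outside the table was uc.88+, which read 3.27, 3.13 and 3.27 on the controls and 2.60, 2.44 and 2.51 with isoproterenol and was detected on a single control array.

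Genes that hold ultraconserved exons or introns were followed through their mRNAs, most of which encode proteins that bind RNA. Of 17 such genes 16 had a named row in the mRNA table. Among these 5 rose, 0 fell and 11 did not pass, beside 14.1% of all mRNA rows that passed in either direction. The median over the 16 was 0.32, and that over all mRNA rows −0.08. Within slide 1 the medians were 0.25 and 0.02.

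The 5 that rose were 2 SR splicing factors, both Tra2 splicing activators and a nuclear export receptor. Srsf7, an SR protein, read 12.77, 12.69 and 12.60 on the controls and 13.62, 13.68 and 13.79 with isoproterenol. Its treated values lay close together above the controls on both slides, a rise of 1.01 ± 0.14 (adjusted p = 0.011; 0.94 within slide 1). Tra2a read 6.46, 6.60 and 6.47 against 7.62, 8.57 and 8.41 and rose by 1.69 ± 0.27 (adjusted p = 0.016). Tra2b rose by 1.22 ± 0.23 (adjusted p = 0.022) and Srsf3 by 1.39 ± 0.27 (adjusted p = 0.025). In these 3 the slide 1 array was the lowest of the treated arrays, with differences of 1.11, 0.84 and 0.82 there. Xpo1, which carries proteins and RNA out of the nucleus, read 11.47, 11.38 and 11.30 on the controls and 12.30, 12.14 and 12.31 with isoproterenol, a rise of 0.87 ± 0.14 (adjusted p = 0.016). With slide as a block Srsf7, Tra2a and Xpo1 passed. Leaving out control replicate 1, 2 or 3, limma called 2, 0 and 0 of the 16, and leaving out isoproterenol replicate 1, 2 or 3 it called 8, 3 and 0. Between 8 and 9 of the 16 then had an unadjusted p under 0.05.

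For a few elements the host gene is well known, and rows and mRNAs can be set side by side. uc.63 lies in XPO1: uc.63- read 7.70, 7.45 and 7.48 on the controls and 7.99, 8.29 and 8.50 with isoproterenol (0.72 ± 0.22, past the threshold only in the detected set, adjusted p = 0.0386). Its values were above the controls on every treated array, as those of the Xpo1 mRNA were. uc.475 lies in OGT, which encodes the enzyme that adds N-acetylglucosamine to nuclear and cytosolic proteins. uc.475+ read 9.15, 9.06 and 8.74 on the controls and 7.84, 8.59 and 8.64 with isoproterenol, and the Ogt mRNA 8.05, 8.06 and 7.77 against 7.56, 6.89 and 6.84. Both were lower on all treated arrays, at −0.63 ± 0.29 and −0.86, and neither passed over its table (adjusted p = 0.248 and 0.063). uc.138 lies in TRA2B, and uc.138+ read 6.57, 6.70 and 6.47 on the controls and 6.42, 8.20 and 7.98 with isoproterenol. Its difference of 0.96 ± 0.49 did not pass (adjusted p = 0.269) and was −0.16 within slide 1, where the Tra2b mRNA differed by 0.84. The row of the other orientation, uc.138-, was higher in every setting tried, by 0.18 to 0.58. uc.338 lies in PCBP2, a poly(C)-binding protein, and uc.338+ and uc.338- differed by −1.74 ± 0.57 and −0.01 ± 0.44 with neither detected on slide 2, beside −0.17 for the mRNA. These 4 elements were chosen after their values had been seen, and elements of the other genes followed above were not set beside their mRNAs. Which orientation matches the transcript of the host gene was not in the files used here.

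All 6 cardiomyocyte markers were measured, with an average over the list of 14.13 to 14.25 on control and 13.91 to 13.99 on isoproterenol arrays, and 1 of them, Pln, fell. One of the 2 rows of Ryr2 was faint, at 5.70 to 5.94 on control and 5.26 to 5.42 on isoproterenol arrays. Of 7 fibroblast markers 3 fell, namely Col3a1, Dcn and Postn, and their list averaged 12.43 to 12.51 on control and 11.63 to 11.81 on isoproterenol arrays. Of the 4 that did not pass, Pdgfra and Tcf21 differed by −0.72 and −0.67, and Col1a1 and Col1a2 by 0.02 and 0.24. Among the remaining lists 1 of 2 smooth muscle markers (Tagln) and 1 of 4 macrophage markers (Cd14) rose, and 1 of 5 endothelial markers (Kdr) and 1 of 2 red cell markers (Hbb) fell. The last 2 were faint, and on isoproterenol replicates 2 and 3 both read below the lowest detected signal of 6.08 and 5.38. On slide 2 their signal therefore has no measured level. Kdr read 5.84 to 6.18 on control and 4.70 to 4.84 on isoproterenol arrays, and Hbb 5.72 to 5.86 and 4.68 to 5.18. Among these markers Pln, Col3a1, Postn and Kdr passed with slide as a block in limma. Dcn (adjusted p = 0.0571), Tagln (0.0729), Cd14 (0.114) and Hbb (0.105) did not. Pdgfra (0.0441) and Myh6 (0.0496) passed there but not without the block. Of these 2, Pdgfra was lower with isoproterenol and Myh6 higher, by 0.63 over all arrays and 0.87 within slide 1. For Cnn1, Csf1r and Hba1 of these lists no named row was found. Only 13948 of the 20734 mRNA rows were named, so these genes may still have been measured. List averages were 10.44 to 10.99 on control and 11.17 to 11.54 on isoproterenol arrays for smooth muscle, 7.81 to 7.92 and 7.15 to 7.64 for endothelium, 7.66 to 7.94 and 7.36 to 8.05 for macrophages, and 5.15 to 5.47 and 4.36 to 5.25 for red cells. The part of these other cells in the differences of the uc rows was not tested.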

How the data were processed

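RNA of 3 control and 3 isoproterenol-treated samples was hybridised to 1-colour arrays. Per the file headers, Agilent Feature Extraction 11.0.1.1 made the deposited Cy3 intensity values, with probes placed on build rn4. Slides were inferred, with arrays grouped by the scan times in these headers. The authors deposited normalized log2 tables of lncRNAs and mRNAs. Which software normalized them is not given in the labels, file headers or other sources used here. The values of the uc rows could be rebuilt from the scanner files to within 0.00506 (log2 of the processed signal with a floor of 5, mean over a probe's spots, quantile normalization over 38321 probes). Exact repeats were dropped.

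Groups were compared with limma 3.58.1 in R 4.3.3 (two-sided, Benjamini-Hochberg over 9054 lncRNA or 20734 mRNA rows, threshold 0.05), checked on simulated data, where 64 of 100 rows changed by 2 and 81 of 100 changed by 3 on the log2 scale were recovered in the lncRNA table with 9 false calls in all. The simulated noise had the same SD in both groups and no slide effect, unlike these data, so recovery and false calls may differ here. Symbols came from RefSeq for assembly GRCr8, which named 13948 mRNA rows. Named rows were those called, their other orientation, the 5 brightest, uc.323 and uc.167, and the 3 most like the called row of largest change. Members and lists were chosen with earlier results of these data known. Alternatives covered the scaling, background correction (normexp on median signals, as mean signals were not in the files used), detection filters, slide, replicate number and each array left out. The number of arrays limits the precision.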

Additional observations from a re-analysis of the deposited data

How the results depend on the processing

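Calls depended on the arrays and on the rows tested together. Higher and lower uc rows numbered 3 and 0 with scaling by the 75th percentile and 7 and 7 with normexp and quantile normalization. They numbered 1 and 0 with centring on the median, 7 and 4 with an intensity trend and 10 and 11 among rows detected on all 6 arrays. Further alternatives were chosen after seeing the data. Among rows detected on all 6 arrays, slide as a block gave 8 and 7. With every probe tested, 6 of the 962 uc probes were higher and 5 lower, among them uc.88+, which is not a row of the table. With slide as a block, within slide 1 and with a replicate block limma called 0 and 0, with 43, 60 and 77 uc rows at an unadjusted p under 0.05. Over all lncRNA rows 222, 501 and 230 were called under scaling by the 75th percentile, normexp and the 75th percentile of probes detected on all arrays, 632 among rows detected on all 6 arrays, 446 there with slide as a block, 410 with an intensity trend, and 0 with slide as a block, within slide 1 and with the replicate block. Leaving out single arrays gave 0 to 4211 lncRNA rows, 0 to 122 higher and 0 to 120 lower uc rows, and 0 to 8 mRNAs of genes that hold ultraconserved elements. Of these mRNAs 3 were called with slide as a block and within slide 1, 8 with an intensity trend and 0 with the replicate block (8 at an unadjusted p under 0.05). Between samples of the same replicate number, deviations from the group means correlated at −0.041, 0.007 and 0.005. These values cannot settle whether the samples were paired, because the isoproterenol deviations also hold the difference between the slides.

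The median change of uc rows, −0.0195, was 0.23 with scaling by the 75th percentile and 0.0176 with centring on the median. It was −0.0535 for rows detected on at least 3 arrays and 0.18 for those on all 6. With slide as a block and within slide 1 it was 0.0411, and without single arrays −0.0295 to 0.0195. Over all 962 uc probes of the array, which include the 477 outside the table, the median was 0.28. Among rows detected on all 6 arrays, 10 higher and 11 lower became, in alternatives added after seeing the data, 5 and 2 within slide 1, 8 and 7 with slide as a block and 1 and 0 with the replicate block (35 at an unadjusted p under 0.05), and 1 to 52 higher and 0 to 21 lower without single arrays.

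Signs turned as follows. With slide as a block and within slide 1, uc.188- was −0.11, uc.138+ −0.16, uc.406- −0.20, uc.46- −0.21, uc.480- −0.29, uc.45- −0.57, uc.414+ −0.60, uc.338- 0.25 and uc.378- 0.82, and those detected on all 6 arrays had the same values in that set with slide as a block. uc.338- was 0.14 with scaling by the 75th percentile, 0.10 with normexp and 0.0246 with centring on the median. uc.452+ was −0.0649 with normexp and, with the percentile over probes detected on all arrays, −0.18, and uc.414+ was −0.20 there. Of the elements studied in heart cells, scaling by the 75th percentile gave 0.0979 for the minus row of the lower-numbered and 0.27 for the plus row of the higher-numbered one, the latter 0.0496 with the percentile of the detected probes, while the plus row of the lower-numbered one ran from −0.50 to 0.0584 without single arrays. The ranges without single arrays were −0.33 to 0.15 for uc.101-, −0.30 to 0.11 for uc.173-, −0.36 to 0.47 for uc.338-, −0.11 to 0.42 for uc.414+, −0.0843 to 0.42 for uc.45- and −0.0692 to 0.27 for uc.452+. Apart from the settings themselves, the causes were not tested. On slide 2 signal over background limited what could be measured for 315 of the 485 rows.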
